A study of Arabidopsis thaliana with 6 samples.

Results

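Raised CO2 was combined with 3 light levels in Arabidopsis thaliana of the laboratory accession Col-0, and a set of 54 probe sets had a higher signal in high CO2 than in ambient CO2 at every light level. They were chosen from 22746 probe sets (control probe sets left out) by 2 conditions. With signals below 20 set to 20, the log2 difference, high minus ambient CO2, had to be at least 0.4 in low, in medium and in high light, and the signal had to be at least 50 on all 3 high-CO2 arrays. The list was defined to leave out 8 further probe sets, of which 5 met both conditions. All the CO2 differences of the members are therefore values that chose them, and they are given as a description with no test.

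The series title asks for the genetic basis of a change in stomatal number at raised atmospheric CO2. Rosette centres with leaves up to the 11th were sampled for RNA at growth stages 3.20 to 3.50. The plants grew on compost at 21 degrees C, in days of 10 h light and nights of 14 h, after 3 days of cold stratification at 4 degrees C. All groups were unmodified Col-0 plants of stock N1092 in a growth room at 50 to 60% humidity, and all received the insecticide Intercept. Plants in high CO2 (low, medium or high light) were set against plants in ambient CO2 at the same 3 light levels, with 1 ATH1 array for each of the 6 combinations. Neither the CO2 concentrations nor the light intensities are given in the sources used here. Nor is the number of plants pooled for an array. The array of high light in high CO2 has conflicting labels, since the title gives high CO2 while the entry for atmosphere reads normal. It was placed by its title.

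The values are array signals on a linear scale, and a difference is given in log2 units, where 1 unit is 2-fold. The 6 arrays had been scaled to the same 2% trimmed mean, with median signals between 40.7 and 43.2. The number of arrays limits the precision. Of the leaf markers, 5 were matched in the probe annotation (RCA, LHCB4.1, LHCB4.2, PRK and SBPASE). Their summed signals lay between 16559.3 and 19676.8 in high CO2 and between 15086.6 and 19623.8 in ambient CO2. None reached a difference of 0.4 at each light level. The meristem gene CLV3 had signals of at most 8.6 on all arrays, and the root genes EXPA7 and EXPA18 summed to at most 71. The stomatal genes FAMA and STOMAGEN summed to 295.7, 338.9 and 306.8 in low, medium and high light of high CO2. In ambient CO2 they summed to 299.3, 403.6 and 359.7. The wax gene WSD1, the epidermis marker matched, had 17.7, 58.2 and 27.8 in high CO2, against 37.2, 71.8 and 105.1 in ambient CO2. The sum of FAMA and STOMAGEN and the signal of WSD1 were lower in high CO2 at each light level, while the leaf sum was higher at each. Single genes did not all follow the sums. RCA, LHCB4.1 and LHCB4.2 were higher at each level, but PRK was lower in low and medium light and SBPASE in medium light. STOMAGEN, which made up most of its sum with FAMA, was lower at each level (236.6, 272.1 and 227.2 against 242.4, 320.7 and 279.1). FAMA was higher in low light (59.1 against 56.9), but lower in medium (66.8 against 82.9) and high light (79.6 against 80.6). The part of these markers in the results was not tested. The ratio of the 3' to the 5' control probe set for actin, which rises as RNA is degraded or copied incompletely, was 3.99 in low, 5.52 in medium and 4.81 in high light in high CO2, against 5.30, 7.54 and 5.37 in ambient CO2. It was lower in high CO2 at each light level and highest in medium light at both CO2 levels. For GAPDH the same ratio was at most 1.26 in high CO2 and at most 1.28 in ambient CO2, both reached in medium light. The part of RNA quality in the results below was not tested. In whole-tissue RNA, a change in the number of cells of a type and a change in RNA per cell cannot be told apart.

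Plants take up CO2 through stomata, and more CO2 raises photosynthesis and the supply of sugars while stomata narrow. Leaf cells also carry a large set of surface receptors, many of them kinases with leucine-rich repeats outside the cell, which sense microbial molecules and the plant's own peptides. Inside the cell, receptors with a nucleotide-binding domain and their chaperones guard against pathogens, and their genes are often raised together with those of the surface receptors.

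Of the 54 members, 21 carried 1 gene in the probe annotation, 1 probe set matched several genes, and 32 are unnamed here and are given by probe set ID. On the numbered chromosomes the 21 genes were spread as 5, 4, 1, 5 and 6 on chromosomes 1, 2, 3, 4 and 5, and no pair of them lay with 5 or fewer protein-coding genes between them in the TAIR10.1 gene table. No coordinates are given, since the array design names no genome build in the sources used here. Members with a known role included 4 kinases, 2 proteins of intracellular immunity, 2 proteins of the cell wall, 3 transporters of the major facilitator superfamily and 2 proteins linked to membrane lipids. These roles were assigned after the values were seen.

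Across the members the mean CO2 difference over the 3 light levels ranged from 0.43 to 1.82, with a median of 0.75. Only 3 members were at least 2-fold higher in high CO2 at each light level, and 15 reached 2-fold on average. The median difference was 0.62 in low, 0.77 in medium and 0.62 in high light, while the medians over all 13648 probe sets tested were -0.01, 0.01 and 0.03. In 28 members the difference was largest in medium light, in 15 in high light and in 11 in low light. For 16 members the 3 differences lay within 0.2 of each other, and for 10 they spanned over 1 unit.

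**Figure D1:**
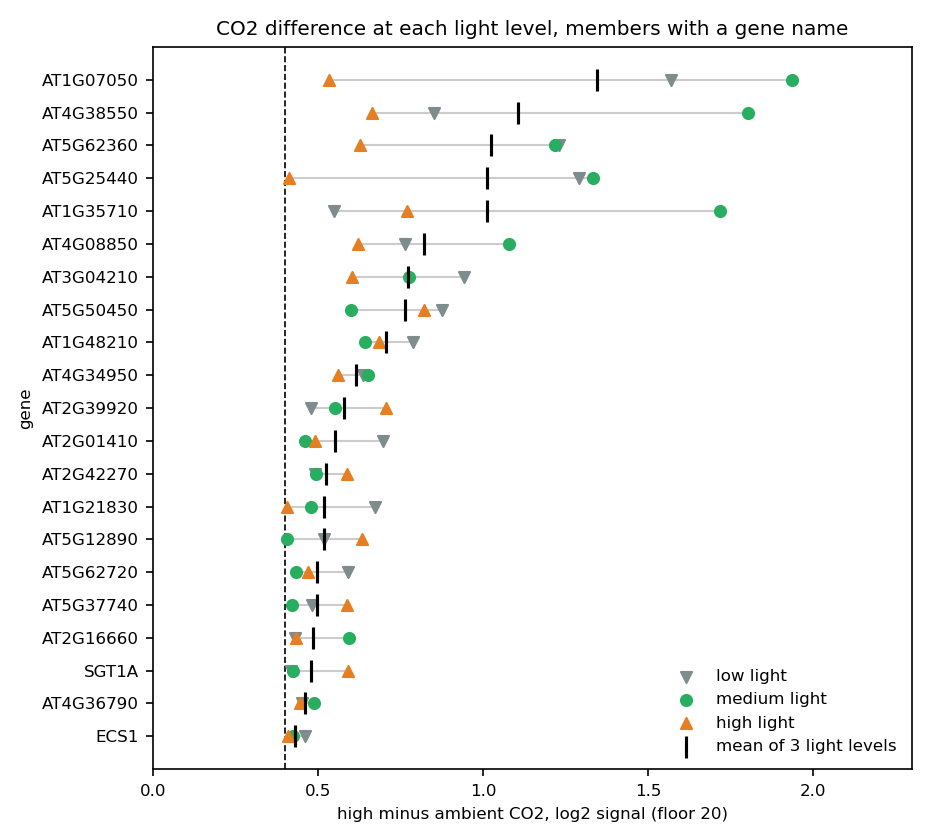
Difference of log2 signal, high minus ambient CO2 (signals floored at 20), for the 21 members with a gene name, 1 symbol for each light level and a bar at the mean. The dashed line is the limit of 0.4 that chose the members; AT1G07050 is at the top with a mean of 1.35 and ECS1 at the bottom with 0.43.

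With the light levels pooled, the CO2 groups overlapped in about as many members as they did not. In 26 members (48.1%) the 3 high-CO2 signals all lay above the 3 ambient ones, and in 28 they overlapped. Over all probe sets tested 3.74% had this order, but the choice of members fixes much of it. Of the 13648 tested, 0.601% had a difference of at least 0.4 at each light level. With the sign turned, so that signals were lower in high CO2 at each light level and at least 50 on all 3 ambient arrays, 40 probe sets met the conditions.

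Among the kinases, AT4G08850, a leucine-rich repeat receptor kinase also known as MIK2 that senses a family of plant peptides, had 210, 128.4 and 299.2 in high CO2 (here and below in the order low, medium, high light), against 123.8, 60.8 and 194.7 in ambient CO2. It was higher in high CO2 at each light level, by 0.82 ± 0.23 log2 units on average (SD, n = 3 light levels), and the pooled groups overlapped. AT1G35710, a receptor kinase of the same subfamily, had 131.7, 161.3 and 273.2 in high CO2, against 90.1, 49 and 160.3 in ambient CO2. Its difference of 1.01 ± 0.62 was uneven, with 0.55 in low, 1.72 in medium and 0.77 in high light, the medium value resting on the lowest of its ambient signals.

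AT1G48210, a protein kinase, had 66.3, 76.8 and 157.6 in high CO2, against 38.4, 49.2 and 98.1 in ambient CO2. Its difference was even, 0.70 ± 0.07, and both CO2 levels were highest in high light. AT5G25440, another protein kinase, had 95.2, 50.4 and 90.3 in high CO2, against 38.9, 12.2 and 67.9 in ambient CO2. The medium-light ambient signal lay under the floor of 20, so the difference of 1.33 there was set by the floor, and the signal of 50.4 left it just inside the limit of 50.

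For intracellular immunity, AT3G04210, a protein of the class that joins a TIR domain to a nucleotide-binding domain, had 203.1, 132.1 and 281.2 in high CO2, against 105.7, 77.2 and 185.1 in ambient CO2. The difference was 0.77 ± 0.17, at 1.71-fold, and the groups overlapped because the high-light ambient signal exceeded the medium-light high-CO2 one. SGT1A, a co-chaperone that stabilises nucleotide-binding immune receptors, had 135.3, 113.8 and 149.6 in high CO2, against 101.2, 84.8 and 99.4 in ambient CO2. Here the groups did not overlap, although the difference was only 0.48 ± 0.10.

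At the cell wall, AT5G62360, of the family of invertase and pectin methylesterase inhibitors, had 299.7, 248.8 and 281.9 in high CO2, against 127.7, 107 and 182.5 in ambient CO2. The groups did not overlap, and the difference of 1.03 ± 0.34 was smaller in high light (0.63) than in low (1.23) or medium light (1.22). ECS1, a protein of the cell wall, had 5704.9, 5502.5 and 5509.2 in high CO2, against 4144.5, 4101.8 and 4150.6 in ambient CO2. Its difference of 0.43 ± 0.03 hardly moved with light. Probe sets this bright were higher in high CO2 as a group, with a median mean difference of 0.19 over the 85 with a mean signal of at least 3000, among which ECS1 ranked 3. With quantile normalization, which makes the signal distributions of the arrays equal, its difference was 0.19.

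The major facilitator proteins are membrane transporters of small molecules. AT4G34950 had 827.7, 351.6 and 752.5 in high CO2, against 533.2, 224.1 and 510.6 in ambient CO2, with an even difference of 0.61 ± 0.05. Both groups were low in medium light, so they overlapped. AT2G16660 had 596.9, 594.9 and 799.3 in high CO2, against 443.2, 394.1 and 592.3 in ambient CO2, a difference of 0.49 ± 0.09 without overlap. AT4G36790 had 60.3, 61.2 and 72.1 in high CO2, against 44.1, 43.7 and 53 in ambient CO2, a difference of 0.46 ± 0.02 without overlap. The membrane protein AT5G62720, of the HPP family, had 599.4, 377.3 and 444.6 in high CO2, against 398.5, 279.4 and 321.5 in ambient CO2, and these groups overlapped.

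**Figure D2:**
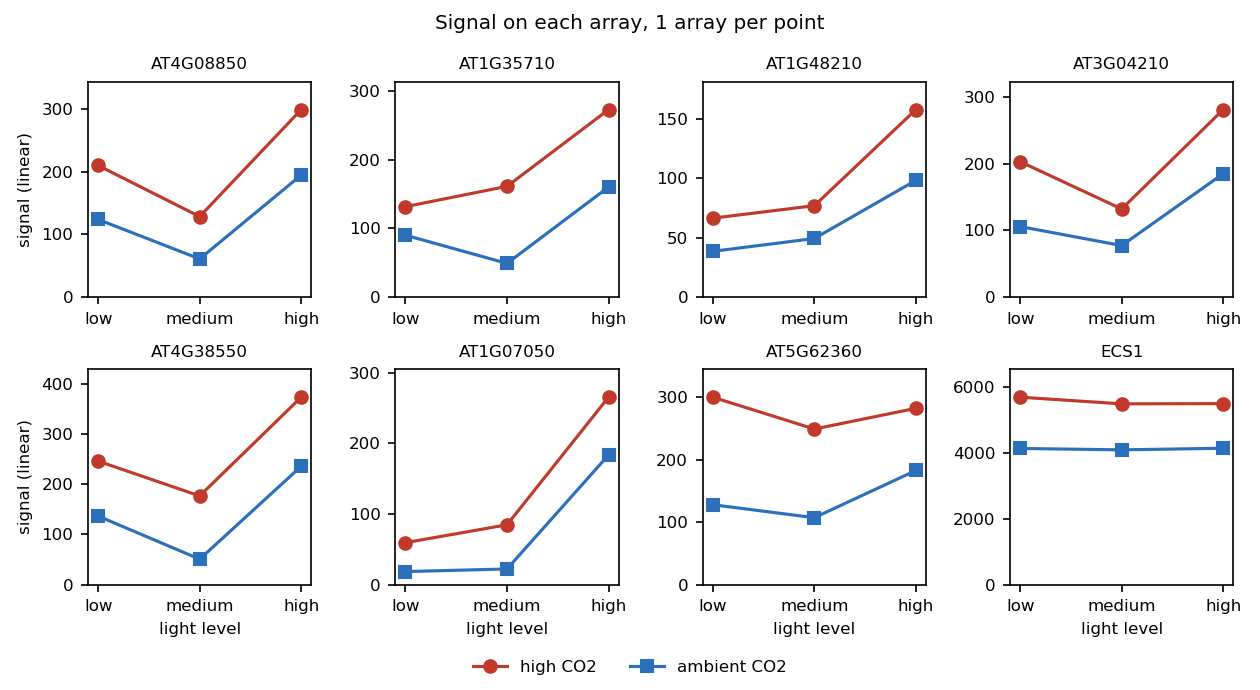
Signal (linear scale, 1 array per point) in low, medium and high light for 8 members, with high CO2 in red and ambient CO2 in blue. The red points lie above the blue ones at each light level, as the rule requires; AT4G08850, AT3G04210 and AT4G38550 dip in medium light at both CO2 levels, while AT1G48210 and AT1G07050 climb and ECS1 is flat.

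Of the proteins linked to membrane lipids, AT4G38550, of a phospholipase-like family, had 246.2, 176.8 and 373.7 in high CO2, against 136.6, 50.7 and 235.9 in ambient CO2. Its difference of 1.11 ± 0.61 was largest in medium light, 1.802, and its probe set is of the type that can bind transcripts of more than 1 gene. AT5G37740, a small C2-domain protein that binds membrane lipids with calcium, had 68.4, 68.9 and 87.6 in high CO2, against 49, 51.5 and 58.3 in ambient CO2, with no overlap and a difference of 0.50 ± 0.08.

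The largest mean difference among the named genes was that of AT1G07050, a protein with a CCT motif, the domain shared by CONSTANS and clock proteins. It had 59.3, 84.6 and 265.1 in high CO2, against 18.4, 22.1 and 183.3 in ambient CO2. The difference was 1.57 in low, 1.94 in medium and 0.53 in high light, so the gap was wide at the lower light levels and narrow in high light, and the low-light ambient signal lay under the floor.

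The remaining named genes had mean differences between 0.52 and 0.76. AT5G50450, with a MYND zinc finger, had 141.7, 111.6 and 157.6 in high CO2, against 77.3, 73.7 and 89.3 in ambient CO2. AT2G42270, an RNA helicase of the U5 spliceosome particle, had 56.1, 62 and 57.5 in high CO2, against 39.9, 44 and 38.3 in ambient CO2. In both of these the groups did not overlap. AT2G39920, an acid phosphatase of the HAD superfamily, had 162, 115.4 and 101.9 in high CO2, against 116.4, 78.7 and 62.5 in ambient CO2, with overlap. AT5G12890, a UDP-glycosyltransferase, had 68.7, 52 and 81.7 in high CO2, against 48, 39.3 and 52.7 in ambient CO2, with overlap. AT2G01410 and AT1G21830, for which no role is given here, had mean differences of 0.55 ± 0.13 and 0.52 ± 0.14, both without overlap.

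Of the unnamed members, 245038_at had the largest mean difference, 1.82 ± 0.35, with signals of 85.5, 76.9 and 164.5 in high CO2, against 16.5, 2.4 and 60.9 in ambient CO2. The largest smallest-of-3 difference, 1.44, was that of 247604_at, with 60.5, 61.8 and 79.6 in high CO2, against 16.4, 5.1 and 29.4 in ambient CO2. In these probe sets, AT5G25440 and AT1G07050 at least 1 ambient signal lay under 20, so their fold differences rest on the floor; with a floor of 0.1 the mean differences were 2.94 for 245038_at and 2.31 for 247604_at. 266746_s_at had 784, 387.3 and 795.7 in high CO2, against 332.8, 170.5 and 231 in ambient CO2, a difference of 1.40 ± 0.33 without overlap. 265837_at had 387.6, 317.1 and 1406 in high CO2, against 203.3, 85.4 and 725.9 in ambient CO2, with overlap.

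At the limits of the rule the values ran on without a gap. Just inside the limit of 0.4 lay AT5G12890 (smallest difference 0.404), AT1G21830 (0.407) and 258791_at (0.408), and just outside it 257700_at (0.3997), AT1G55450 (0.396) and 267460_at (0.395). A further 63 probe sets with enough signal had a smallest difference of at least 0.3 and less than 0.4. By signal, AT5G25440 (50.4), 254416_at (51.2) and AT5G12890 (52) were just inside the limit of 50, and AT3G23550 (48.7), 248092_at (47) and AT5G18470 (46.5) just outside. AT5G18470, a lectin-like protein, had differences of 1.22, 1.299 and 1.31, of which the smallest was exceeded by the smallest difference of only 2 members. Its ambient signals in low and medium light, 14.8 and 19.9, lay under 20, so its differences there rest on the floor. A total of 27 probe sets met the difference at each light level with a signal under 50. The 5 left-out probe sets that met both conditions had smallest differences between 1.00 and 1.81, above those of all but 3 members.

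The size of the list can also be read as the share of probe sets chosen on 2 light levels that met the rule at the remaining one. For this count the 8 left-out probe sets were allowed in, so the 59 that met it are the 54 members and the 5 left-out ones at every level. The shares therefore rest on the differences that chose the members and are no separate support for them. Of the 168 probe sets chosen on medium and high light, 59 (35.1%) had a difference of at least 0.4 in low light, against 7.23% of all probe sets with the same signal minimum. Of 133 chosen on low and high light, 59 (44.4%) had it in medium light, against 11% of all. In high light 59 of 193 (30.6%) chosen on low and medium light had it, against 10.6% of all. In the opposite direction, at or below -0.4, there were 2.38% against 6.41% of all in low light, 4.51% against 6.84% in medium light and 15.0% against 7.17% in high light. The share in the opposite direction was thus above that of all probe sets in high light, the level with the array whose labels conflict, and below it in low and medium light. These are shares of probe sets, which are not replicates, and no test was made of them. Probe sets that vary widely between arrays are chosen more easily, which the shares of all probe sets do not take into account.

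**Figure D3:**
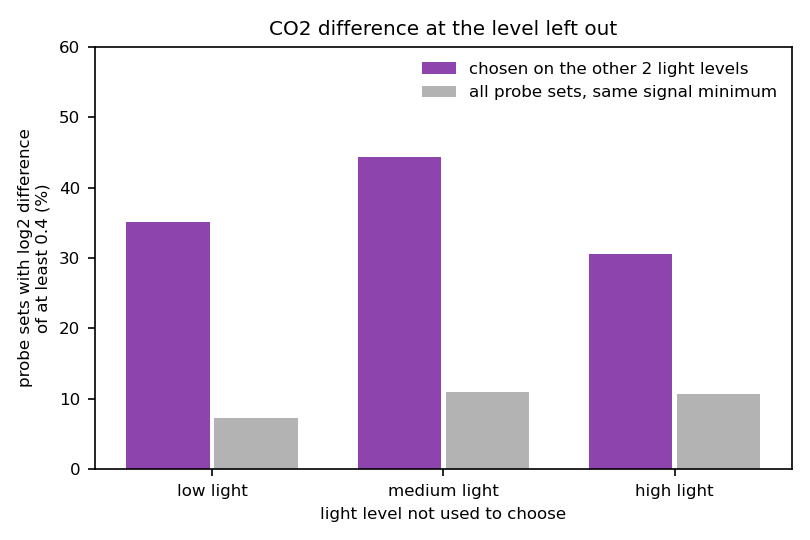
Percent of probe sets with a CO2 difference of at least 0.4 at 1 light level, for those chosen on the other 2 levels (purple) and for all with a high-CO2 signal of at least 50 at that level (grey). The purple bars are at 35.1, 44.4 and 30.6% and the grey bars at 7.23, 11 and 10.6% in low, medium and high light.

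The rule sets no direct condition on how light acts, but the counts below use the same signals as the rule. A low ambient signal in medium light, for example, favours both membership and a lowest signal there. At each CO2 level a majority of members had their lowest signal in medium light, and a majority, not always the same members, had their highest signal in high light. In high CO2 34 members (63.0%) had their lowest signal in medium light, against 27.2% of all probe sets tested, and in ambient CO2 39 (72.2%), against 30.8%. The highest signal was in high light in 38 members (70.4%) in high CO2 and in 38 in ambient CO2, against 33.9% and 32.7% of all. Both CO2 levels had the valley in 31 members (57.4%, against 12.6% of all) and both had the peak in 33 (61.1%, against 16.6%). The full pattern at both CO2 levels was found in 19 members (35.2%, against 3.89%), among them 6 of the 21 named genes. Among the 40 probe sets lower in high CO2 at each light level, 4 had their lowest signal in medium light in high CO2 and 4 in ambient CO2, and 5 had their highest signal in high light at each CO2 level. These counts are descriptions with no test. The actin ratio was also highest on both medium-light arrays, and its part in the valley was not tested.

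**Figure D4:**
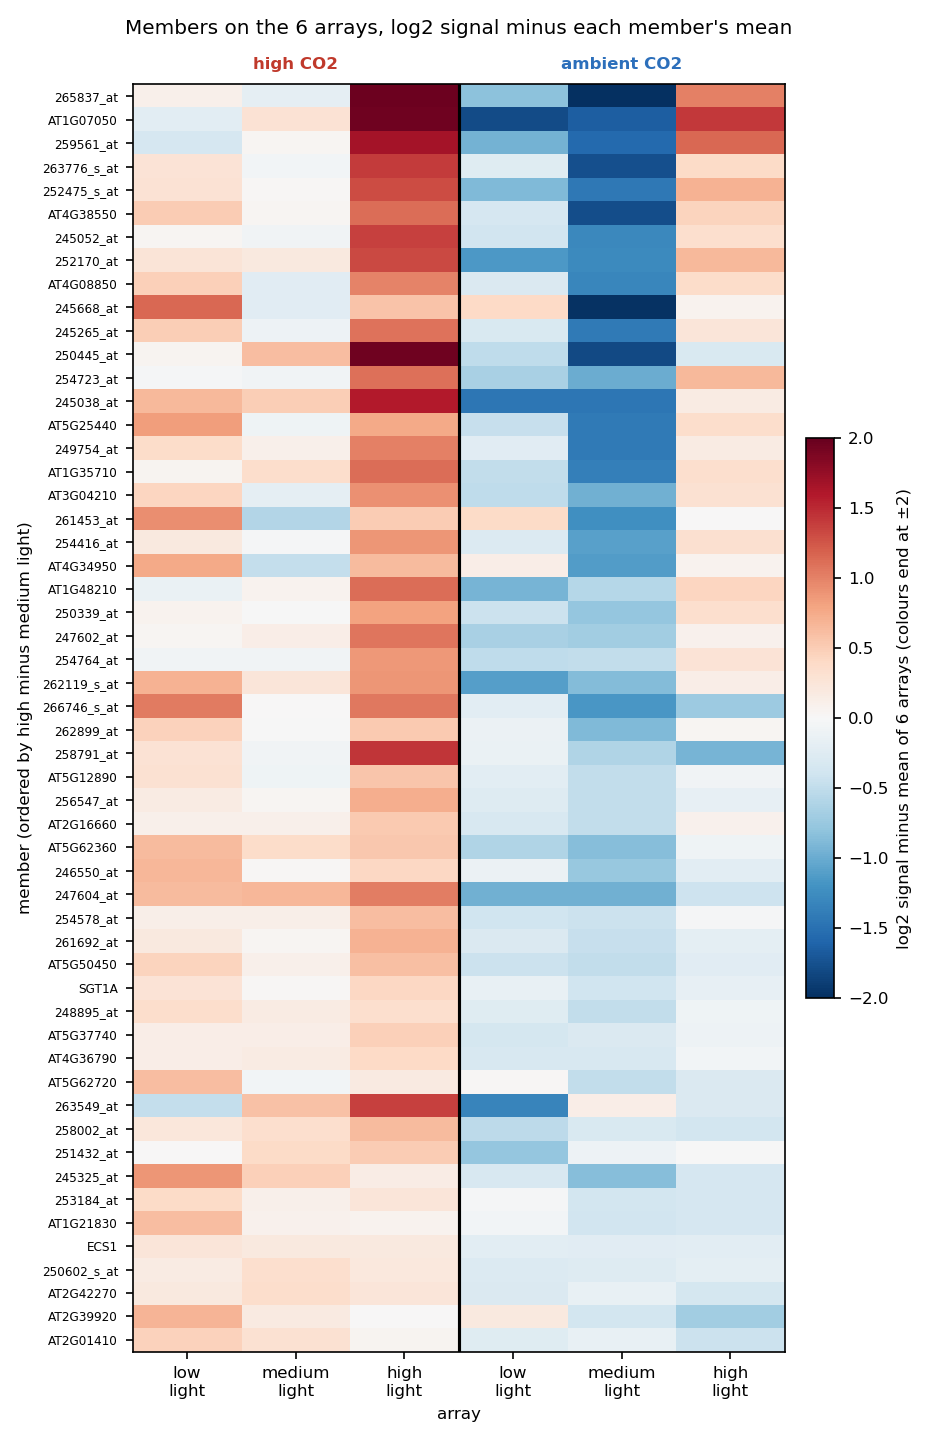
Log2 signal (floored at 20) of the 54 members minus each member's mean over the 6 arrays, with high CO2 on the left, ambient CO2 on the right and low to high light within each. Members are ordered by their high minus medium light difference. The high-light column of high CO2 is the reddest and the medium-light column of ambient CO2 the bluest, and the members at the foot, such as AT2G39920 and AT2G01410, lack the peak in high light.

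The size of this pattern was close at both CO2 levels. From medium to high light the median member was higher by 0.77 in high CO2 and by 0.76 in ambient CO2, with 48 of 54 members above 0 at each, while all probe sets tested had medians of -0.01 and -0.03. Medium minus low light gave medians of -0.20 in high CO2 and -0.33 in ambient CO2, against 0.05 and 0 for all tested. High minus low light gave 0.45 in high CO2 and 0.38 in ambient CO2, against 0.04 and 0.01.

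**Figure D5:**
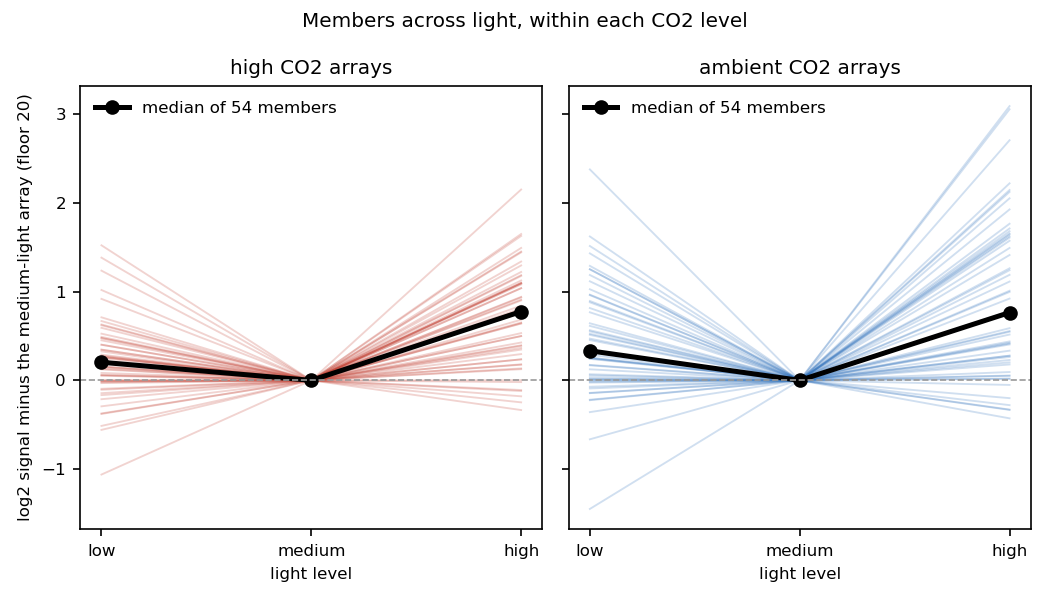
Log2 signal (floored at 20) of each of the 54 members minus its own medium-light signal, in low, medium and high light, for the high-CO2 arrays on the left and the ambient ones on the right, with the median in black. Most lines rise on both sides of medium light, and the median reaches 0.77 in high light in high CO2 and 0.76 in ambient CO2.

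Light differences were tested with limma on all 6 arrays, in a model additive in CO2 and light, with Benjamini-Hochberg adjustment over the 13648 probe sets and a threshold of 0.05. All 54 members passed the filter on low signals, for which their signals of at least 50 in high CO2 count in their favour. The rule also limits how far their CO2 differences can disagree, and that disagreement is part of the spread the test uses. From medium to high light 17 members rose (31.5%) and 0 fell, with 37 at an unadjusted p under 0.05, while 0.953% of all probe sets passed. From low to high light 13 rose (24.1%) and 1 fell, while 9% of all passed, 4.18% higher and 4.82% lower. From low to medium light 9 fell (16.7%) and 1 rose, while 4.54% of all passed, 2.37% higher and 2.16% lower. In all 25 members (46.3%) changed in at least 1 of these comparisons, against 10.8% of all probe sets tested, and 29 in none. The median log2 changes were 0.78, 0.39 and -0.30, against -0.02, 0.03 and 0.02 over all tested.

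These calls, like those over all probe sets, lean on single arrays and on the model of the spread. The count of members for high minus medium light was 1 without the medium-light ambient array (4 of all probe sets), 27 when that of high light in high CO2 was left out, and 0 when the spread was not allowed to depend on intensity (1 of all probe sets). For medium minus low light it ranged from 0, without the low-light high-CO2 array, to 17, without the high-light ambient array, and was 2 without the low-light ambient array and 4 without the medium-light ambient one. For high minus low light it was 7 without the low-light high-CO2 array, 9 without the low-light ambient array and 21 without the medium-light ambient array.

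Of the named genes, 6 rose from medium to high light. AT1G07050 rose by 2.35 ± 0.32 log2 units (SE, adjusted p = 0.0253), AT4G38550 by 1.65 ± 0.26 (0.037), and the receptor kinase AT4G08850 by 1.45 ± 0.16 (0.0196). The others were the immune protein AT3G04210 (1.18 ± 0.15, adjusted p = 0.0248), the transporter AT4G34950 (1.14 ± 0.12, 0.0196) and the kinase AT1G48210 (1.02 ± 0.17, 0.0439). Each was higher in high than in medium light at both CO2 levels. All 6 calls were lost without the medium-light ambient array, where the changes were 1.94 for AT1G07050 (adjusted p = 0.183), 1.13 for AT4G38550 (0.156), 1.26 for AT4G08850 (0.132), 1.17 for AT3G04210 (0.179), 1.116 for AT4G34950 (0.114) and 1.06 for AT1G48210 (0.248). AT1G48210 was also lost without the high-light ambient (0.0825), medium-light high-CO2 (0.0859) or low-light high-CO2 array (0.0501), when CO2 followed the atmosphere entry (1.37, adjusted p = 0.0669), and with quantile normalization (0.98, 0.0574). AT4G38550 was lost with quantile normalization (1.64, adjusted p = 0.0527) and with a robust prior (1.65, 0.0578). Of the 6, only AT4G34950 kept its call when no filter was set, and none did without the trend. The receptor kinase AT1G35710 (1.24 ± 0.27, adjusted p = 0.0807) and the kinase AT5G25440 (1.66 ± 0.35, 0.0784) did not pass, but both passed without the high-light high-CO2 array (adjusted p = 0.00965 and 0.000499).

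From low to high light, AT1G07050 rose by 2.74 ± 0.32 (adjusted p = 0.00388), AT1G48210 by 1.301 ± 0.17 (0.00504) and AT3G04210 by 0.64 ± 0.15 (0.0425), and the acid phosphatase gene AT2G39920 fell, with a log2 change of -0.78 ± 0.16 (0.0234). The calls of AT1G07050 and AT1G48210 were kept in all 15 alternatives run. AT3G04210 was lost with equal medians (0.58, adjusted p = 0.0611), with no filter (0.0659), without the trend (0.0812), and without the high-light ambient (0.51, adjusted p = 0.201), low-light ambient (0.51, 0.33) or low-light high-CO2 array (0.77, 0.145). AT2G39920 was lost without the same arrays (-0.69, -0.71 and -0.86, with adjusted p = 0.0878, 0.187 and 0.127) and with the atmosphere entry (-0.53, 0.303). AT4G08850 (0.58 ± 0.16), AT1G35710 (0.94 ± 0.27) and AT2G16660 (0.42 ± 0.12) did not pass (adjusted p = 0.07, 0.0705 and 0.0757).

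From low to medium light, AT4G34950 fell by 1.24 ± 0.12 log2 units (adjusted p = 0.00699), AT4G08850 by 0.87 ± 0.16 (0.0317) and AT5G62720 by 0.59 ± 0.13 (0.0437). The fall of AT4G34950 was -1.23 without the low-light high-CO2 array (adjusted p = 0.0603) and had adjusted p = 0.0631 without the trend, and it was kept without each of the other 5 arrays. The calls of AT4G08850 and AT5G62720 were lost without any of the 4 low- and medium-light arrays, with adjusted p between 0.0563 and 0.201 for AT4G08850 and between 0.116 and 0.306 for AT5G62720, with the atmosphere entry (0.0871 and 0.119), with no filter (0.0661 and 0.0737) and without the trend (0.0836 and 0.116). In total 8 of the 21 named genes changed with light in at least 1 comparison. The other 13 did not pass in any, among them ECS1 (0.01 ± 0.10 from medium to high light), SGT1A (0.31 ± 0.15), AT2G42270 (-0.15 ± 0.20) and AT5G62360 (0.48 ± 0.18).

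Among the 10 members with the largest smallest CO2 difference, 9 are unnamed. 265837_at rose by 2.62 ± 0.23 from medium to high light (adjusted p = 0.0121) and by 1.85 ± 0.23 from low to high light (0.00459). It was the one probe set of these 9 whose rise from medium to high light passed without the medium-light ambient array. 252170_at rose by 1.52 ± 0.22 from medium (0.0286) and by 1.43 ± 0.22 from low light (0.00829), with adjusted p = 0.219 for the first without the medium-light ambient array and 0.0525 for the second without the low-light ambient array. 245265_at fell by 0.85 ± 0.16 from low to medium light (adjusted p = 0.0302) and rose by 1.42 ± 0.16 from there to high light (0.0196), and without the medium-light ambient array neither passed (0.113 and 0.0987). 266746_s_at fell by 0.99 ± 0.17 from low to medium light (0.0259) and 247602_at rose by 0.88 ± 0.18 from low to high light (0.0235). Without the low-light high-CO2 array these had adjusted p = 0.0979 and 0.198. 247604_at, 245038_at, 262119_s_at and 258002_at passed in none of the light comparisons, although with signals below 20 set to 20 245038_at passed from low to high light (1.28, adjusted p = 0.0123) and from medium to high light (1.35, 0.0366).

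Genes of 11 lists that bear on immunity, sugar status and stress were looked up beside the members. Few listed genes were matched by name in the probe annotation, such as 2 of 59 immune receptor genes and 4 of 42 salicylic acid genes. That annotation gave no gene for 8730 probe sets, so further listed genes may be on the array unmatched. The lists therefore cannot speak for whole pathways. The probe annotation gave 37 distinct genes of these lists, of which 18 passed the filter on low signals, and none is a member with a gene name. The 32 unnamed members could not be matched to the lists. For high minus ambient CO2, 0 of the 18 passed the limma test, where 0.0586% of all probe sets did (0.0513% higher and 0.00733% lower). In that test 5 had an unadjusted p under 0.05 (27.8%, against 8.63% of all), in mixed directions. ERDJ3B, SWEET11 and PDF1.2 were higher in high CO2, and GSTU20 and SWEET17 were lower. SWEET11, a sucrose exporter of the phloem, came nearest to the members' pattern, with signals of 191.1, 258.1 and 299.5 in high CO2, against 108.3, 204.5 and 221 in ambient CO2 and differences of 0.82, 0.34 and 0.44. It rose with light from low to high (0.84 ± 0.16, adjusted p = 0.0205), while the vacuolar sugar carriers SWEET16 and SWEET17 fell (-1.25 ± 0.26 and -1.39 ± 0.26, adjusted p = 0.0265 and 0.0178). In the sugar and starch list, these 3 of 7 tested genes passed, 1 higher and 2 lower in high light, where 4.18% of all probe sets were higher and 4.82% lower. In the jasmonate and ethylene list 1 of 2 tested genes rose from low to high light, the defensin gene PDF1.2 (3.39 ± 0.72, adjusted p = 0.0273). It had 17.2, 82 and 483.9 in high CO2, against 8.6, 74.1 and 33.8 in ambient CO2. Both low-light signals lay under 20, and the highest signal was on the array whose labels conflict.

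For light, no tested gene passed in the salicylic acid list (2 tested of 42 listed) or the immune receptor list (1 of 59). The same held for endoplasmic reticulum folding (2 of 27) and for tryptophan and indole metabolism (1 of 24). It also held for glutathione and redox (1 of 31) and calcium signalling (2 of 41). In the salicylic acid list the transcription factor gene WRKY53 had 34.8, 24.8 and 46.4 in high CO2, against 23.9, 23.6 and 88.9 in ambient CO2, with low- and medium-light ambient signals close together. Its CO2 differences were 0.54, 0.07 and -0.94, so that unlike the members it was higher in ambient CO2 in high light. The receptor-like kinase gene BIK1 had CO2 differences of -0.14, -0.48 and -0.20. The senescence, nitrogen and apoplastic defence lists had no gene past the filter.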

How the data were processed

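Total RNA from the rosette centre was labelled with biotin and hybridised to 6 ATH1 arrays, 1 per combination of light and CO2. The authors deposited 1 linear signal intensity per probe set; the submitters' processing notes name MAS5, with no version. The authors had scaled every array to the same 2% trimmed mean, as the values show. MAS5 signals are noisy when low, and detection calls were not used.

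Groups followed the sample titles, and the members followed the stated rule. The members, gene lists and tests were chosen with earlier results of these data known. For the light comparisons log2 signals (floor 0.1) were fitted with limma 3.58.1 under R 4.3.3, using lmFit and trended eBayes, over the 60% of probe sets that were brightest on average, 13648 in all, with a mean signal of 26.7 or more. This left 2 residual degrees of freedom and a mean prior of 5.76. Nothing in the labels, which all read replicate 1, says that plants were raised separately. The p-values reflect the spread among the arrays left by the additive model. In that spread, noise that may be technical cannot be told apart from a CO2 difference that varies with light. The fit was tested on simulated data. Python 3.11.15 made the counts and figures.

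Genes were named through the probe annotation and the TAIR10.1 gene table, where 13436 probe sets matched 1 gene. Named are all members with 1 gene, unnamed members among the 10 with the largest smallest-of-3 CO2 difference, the 3 probe sets on either side of each limit, and up to 4 tested genes per list with the smallest p for high minus low light, of which those printed were picked after their values were seen. No sequences are shown, since none were at hand. Alternatives covered scaling, the floor, a pseudocount of 16, the filter, the spread, the CO2 label of 1 array and leaving out each array.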

Additional observations from a re-analysis of the deposited data

Results flagged for a closer look

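In 7 of the members examined, a light difference had opposite signs at the 2 CO2 levels, each at least 0.05 log2 units in size. Of the 7, 4 have a gene name and 3 are given by ID. Those examined were the members with a gene name and the unnamed ones with the largest smallest-of-3 CO2 differences. With 1 array per combination these differences between CO2 levels were not tested. AT1G35710 had a medium minus low light difference of 0.29 in high CO2 and -0.88 in ambient CO2, and 262119_s_at had -0.45 in high CO2 and 0.22 in ambient CO2. For high minus low light, AT5G25440 had -0.0762 in high CO2 and 0.80 in ambient CO2, and AT5G62360 had -0.0883 in high CO2 and 0.52 in ambient CO2. The others of the 7 were smaller. For medium minus low light, 247602_at had 0.0947 in high CO2 and -0.0558 in ambient CO2. AT2G01410 had -0.15 in high CO2 and 0.0909 in ambient CO2 for the same difference. For high minus medium light, 258002_at had 0.30 in high CO2 and -0.0515 in ambient CO2. Members outside those examined also had opposite signs. Among them, 250445_at had 0.56 in high CO2 and -1.29 in ambient CO2 for medium minus low light. For high minus low light, 258791_at had 1.14 in high CO2 and -0.80 in ambient CO2.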

How the results depend on the processing

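None of the 21 light calls of members given by name or ID changed sign under the 15 alternatives run, and 3 were kept in all 15. No mean CO2 difference changed sign under the fewer alternatives run for it. The rule all but fixed that outcome, since each member was chosen on CO2 differences of at least 0.4. Counts over all probe sets, with the members after the slash, moved as follows, the cause not tested. For high minus low light (1228 / 14) they were 737 over all with no filter, 726 without trend, and 301 to 1636 / 7 to 21 with 1 array left out. For medium minus low light (619 / 10) they were 119 / 2 with no filter, 17 / 1 without trend, 368 / 3 with the atmosphere entry, and 14 to 1630 / 0 to 17 with 1 array left out. For high minus medium light (130 / 17) they were 9 / 2, 1 / 0, 232 over all, and 4 to 852 / 1 to 27 under the same settings. High minus ambient CO2 gave 8 over all, 5 with quantile normalization or the top 40%, 0 with no filter, without trend or with the atmosphere entry, and 8 to 144 with 1 array left out. The rule gave 54 members, 117 at a difference of 0.3 and 16 at 0.6, 32 at a signal of 100, and 196, 145 and 194 without the low-, medium- and high-light level, as fewer conditions give. Quantile normalization shared 50 of the 54 and equal medians 46. The share at the level left out was 35.2% in medium light with equal medians. The counts of members lowest in medium or highest in high light lay between 36 and 40 with either scaling. The CO2 tests, the third-level shares and these counts under other settings were added after seeing the data. No paired analysis was possible because all 6 samples carry replicate number 1, so numbers pair nothing; the model itself compares CO2 levels within light levels, with light as its block.

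Of the 90 light differences of these members, 24 changed sign in at least 1 alternative, in 41 values in all. None of the 24 had passed the test, and none passed with the changed sign (lowest adjusted p = 0.541). For high minus low light the values of changed sign were 266746_s_at 0.35, AT4G34950 0.22, AT2G42270 0.23 and ECS1 0.20 with the atmosphere entry, ECS1 0.0093 with quantile normalization. With 1 array left out, high minus low light ranged from -0.0331 to 1.27 for 247604_at, from -0.54 to 0.0345 for 266746_s_at, from -0.0583 to 0.0348 for AT2G42270, from -0.27 to 0.99 for AT5G25440, from -0.085 to 0.51 for AT5G62360 and from -0.0245 to 0.14 for SGT1A. For medium minus low light the values of changed sign were 247602_at -0.0253, AT4G36790 -0.0406 and AT5G37740 -0.00358 with equal medians, 247602_at -0.00417 and AT4G36790 -0.0299 with quantile normalization, 247604_at 0.0153 with signals below 20 set to 20. With 1 array left out, medium minus low light ranged from -3.02 to 0.082 for 245038_at, from -0.0943 to 0.13 for 247602_at, from -1.80 to 0.14 for 247604_at, from -0.31 to 0.12 for 252170_at, from -0.54 to 0.32 for 262119_s_at, from -0.0247 to 0.80 for AT1G07050, from -0.82 to 0.24 for AT1G35710, from -0.14 to 0.083 for AT2G01410, from -0.015 to 0.0232 for AT4G36790 and from -0.016 to 0.0983 for AT5G37740. For high minus medium light the values of changed sign were AT2G42270 0.0922, AT2G39920 0.00128 and AT2G01410 0.0264 with the atmosphere entry, ECS1 -0.000919 with equal medians, AT1G21830 -0.0228 with quantile normalization. With 1 array left out, high minus medium light ranged from -0.0234 to 0.27 for 258002_at, from -0.068 to 0.10 for AT1G21830 and from -0.00754 to 0.0264 for ECS1.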
